A study of Mus musculus with 2 samples.

Results

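Open chromatin was described at the 94 mouse protein-coding genes whose symbols begin with Kcn, out of 21755 protein-coding genes on chromosomes 1 to 19 and X in the GENCODE vM21 annotation. These genes encode the pores and auxiliary subunits of potassium channels, and they were chosen by symbol alone, with no measured value. The chromatin is that of whole heart tissue from newborn mice (0 days after birth) of strain B6NCrl, for which the labels give neither an introduced allele nor a treatment. DNase-seq was used, in which nuclei are digested with DNase I, an enzyme that cuts accessible DNA first, and the cut ends are sequenced. The series holds 1 group of 2 libraries, numbered as biological replicates 1 and 2, with sex not recorded. Both carry the same donor label and separate biosample labels, so the spread between them may be technical. With 1 group and 2 libraries there is no contrast to test, and the values below are descriptions set beside those of all protein-coding genes.

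Potassium channels let potassium leave the cell and thereby set the resting potential and end each action potential. Voltage-gated channels repolarize the membrane after depolarization, inward rectifiers hold the resting potential, tandem-pore (K2P) channels carry a background leak, and calcium- or sodium-activated channels open when those ions enter. In heart muscle the transient outward, delayed rectifier and inward rectifier currents shape the cardiac action potential, whereas other members of the same families tune firing in neurons. Auxiliary subunits of the Kcne, Kcnip, Kcnab and Kcnmb families do not form pores and alter the gating or surface level of the pores they join.

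The deposited lists hold, for each library, peaks of 150 bp and the broader hotspots in which cutting was raised, both on build mm10. On the chromosomes used here, 164657 peaks were listed for replicate 1 and 144708 for replicate 2. Every peak has a whole-number value given by the authors (medians 36 and 35, highest 145 and 148). Here and below, paired values give replicate 1 first. Each hotspot carries a −log10 of the q-value, listed from 1.3 to 6 and then as exactly 100. Read totals are not held in these lists, so depth is unknown, and a peak missing from a list does not show that a site is closed. A promoter peak was a peak centred within 500 bp of any annotated transcription start site (TSS) of the gene, and the highest one gave the gene's promoter value. A distal peak was centred within 50 kb of a TSS of the gene and over 1 kb from every TSS of any gene. It is assigned to a gene by position alone and can serve a neighbour. In whole tissue a weak peak from many cells and a strong one from few cannot be told apart, nor can a peak be placed in one cell type.

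The tissue label was checked against marker genes. Promoter peaks were called in both libraries at all 8 heart muscle markers (Myh6, Myh7, Tnnt2, Tnni3, Actc1, Actn2, Nppa and Nkx2-5), with median values of 109.5 in replicate 1 and 101 in replicate 2. All 5 endothelial markers and 3 of 5 smooth muscle markers had one as well. Of 8 brain neuron markers, 4 had one in both libraries (Syn1, Snap25, Rbfox3 and Syt1), against 1 of 8 autonomic neuron and Schwann cell markers and 1 of 5 skeletal muscle markers (Myog).

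With all listed peaks, any TSS and a 500 bp window, potassium channel genes had a promoter peak about as often as protein-coding genes in general. Their peaks were lower. A promoter peak was present in both libraries at 60 of the 94 genes (63.8%), against 64.2% of all protein-coding genes. By library the share was 70.2% in replicate 1 and 68.1% in replicate 2, a mean of 69.1% ± 1.5 (SD, n = 2), beside 66.6% and 65.7% of all protein-coding genes. Replicate 1 alone had a peak at 6 of the genes and replicate 2 alone at 4, with values from 14 to 47, and 24 had none in either. Hotspots gave a close count, with 62 genes carrying a promoter hotspot in both libraries, against 65% of all protein-coding genes (14139 genes). A promoter hotspot listed at 100 in both libraries was seen at 24 of the 94 (25.5%), against 52.9% of all protein-coding genes.

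The promoter values of the 60 genes had medians of 47 and 45.5 in replicates 1 and 2, whereas those of the 13977 protein-coding genes with a peak in both had medians of 89 and 85. The mean over both libraries exceeded the protein-coding median of 87 at 6 of the 60 genes. These were Kcnj2 with 112 and 109, Kcnab2 with 106 and 100, Kcnn2 with 107 and 94, Kcnh2 with 97 and 100, Kcnab3 with 103 and 89, and Kcng2 with 99 and 77. In replicate 2 the Kcnab2 peak also lay within 500 bp of a TSS of the neighbouring gene Nphp4. Kcnab2 and Kcnab3 encode cytoplasmic beta subunits of Kv1 channels, Kcnn2 a small-conductance calcium-activated channel of atrial muscle and brain, and Kcng2 a silent Kv subunit that only forms channels with other pores. The median difference between libraries was 6, and the widest was 22, at Kcng2. Values were higher in replicate 1 at 44 genes, higher in replicate 2 at 14 and the same at 2.

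**Figure D1:**
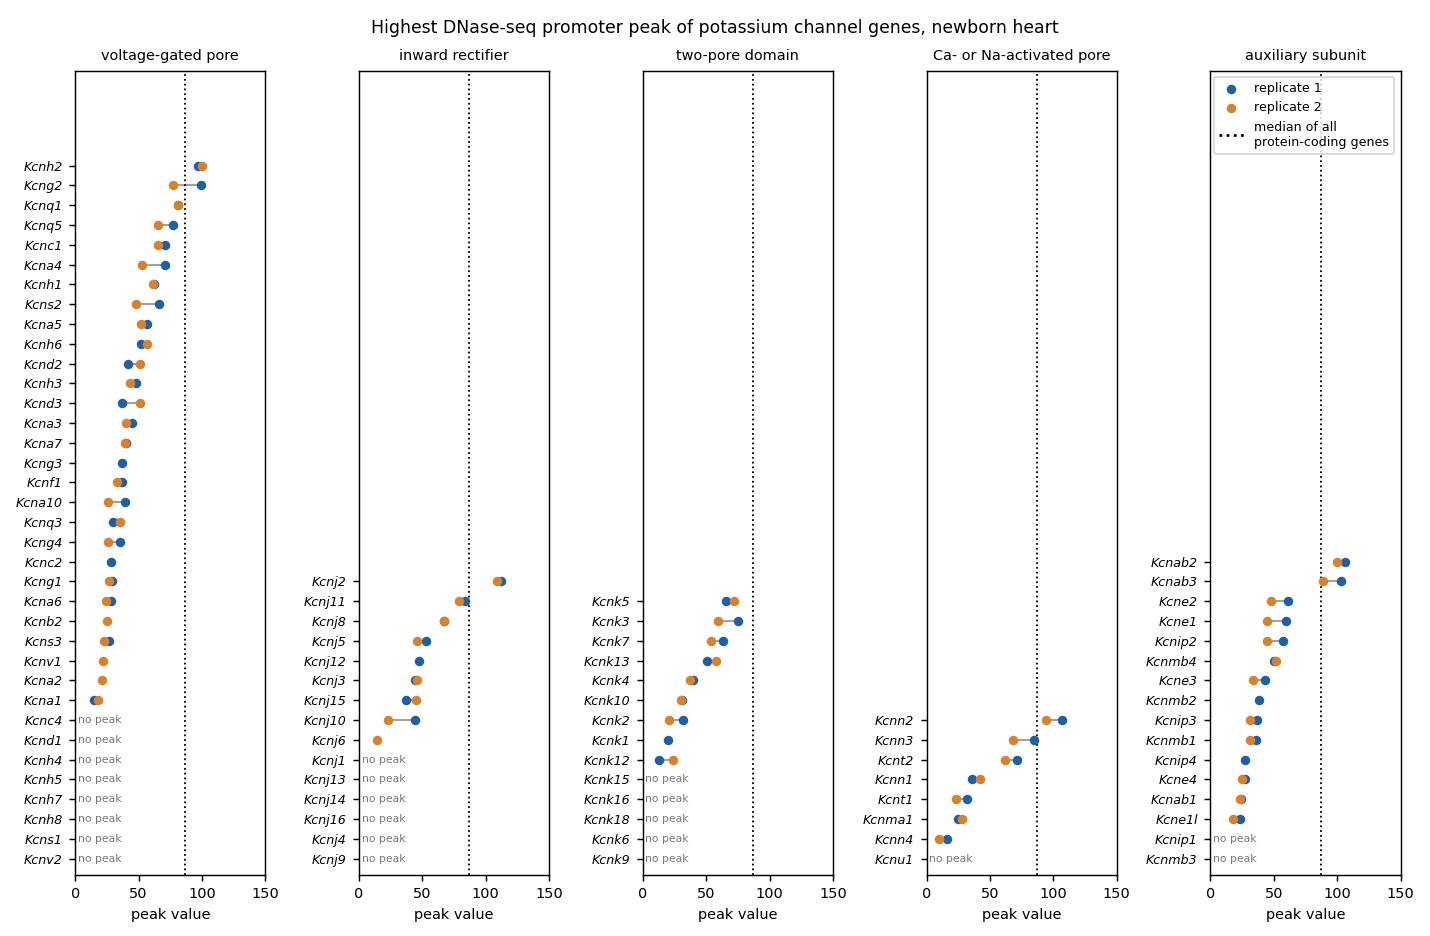
Highest promoter peak value (horizontal axis, the authors' peak value, no unit) of Kcn genes by channel class, with replicate 1 in blue, replicate 2 in orange and a dotted line at 87, the median of all protein-coding genes with a peak in both libraries. Most points lie left of the line, with Kcnj2, Kcnab2, Kcnn2, Kcnh2 and Kcnab3 to its right in both libraries. A few genes, Kcnrg of no class among them, are not drawn.

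The classes differed in how many promoters carried a peak. Calcium- or sodium-activated pores had one in both libraries at 7 of 8 genes (87.5%), auxiliary subunits at 12 of 16 (75%) and voltage-gated pores at 26 of 40 (65.0%). Kcnu1, the activated pore without one, was placed in that class by its symbol prefix and not by what opens its channel. K2P channels had one at 8 of 14 genes (57.1%) and inward rectifiers at 7 of 15 (46.7%). These shares stand on either side of the 64.2% of all protein-coding genes, and no class is set apart by a test. Median values by class ran from 36 (activated pores) to 53 (inward rectifiers) in replicate 1 and from 39.5 (auxiliary subunits) to 49.5 (voltage-gated pores) in replicate 2, so the order of the classes differed between libraries. By family, a promoter peak was found in both libraries at all 5 Kcne, all 4 Kcnn, all 3 Kcnab and both Kcnt genes and at 7 of 8 Kcna genes. It was found at 4 of 8 Kcnh, 2 of 4 Kcnc, 2 of 4 Kcnip and 2 of 4 Kcnmb genes and at neither Kcnv gene.

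At all 7 cardiac channel genes named for comparison, both libraries had a promoter peak (64.2% of all protein-coding genes did). Their median value was 57 in replicate 1 and 51 in replicate 2. The list was uneven: Kcnj2, Kcnh2 and Kcnq1 were at 81 or above in both libraries, and the remaining 4 lay between 42 and 57. Kcnj2 stood above 84.2% of the protein-coding genes with a peak in both libraries and Kcnh2 above 66.4%, whereas Kcnd2 stood above 13.5% and Kcnj3 above 12.4%. The promoter hotspot of Kcnj2 was listed at 100 in both libraries, the only case among the 7, and that of Kcnd2 at 4.66 in replicate 1 and 100 in replicate 2.

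Promoter sequences are shown where the highest peaks of both libraries overlapped and a long enough stretch lay outside annotated exons. This left 4 sequences, from genes that span most of the range of values in the list. Each is the 150 bp peak of replicate 1 on mm10, read 5′ to 3′ on the strand of the gene, with the Kcnj2 peak cut where its first exon begins. Capitals mark the letters CCAAT and the GC box GGGCGG on either strand, which are promoter elements found in many genes.
Kcnj2 promoter, chr11:111066036-111066163, plus strand, values 112 and 109: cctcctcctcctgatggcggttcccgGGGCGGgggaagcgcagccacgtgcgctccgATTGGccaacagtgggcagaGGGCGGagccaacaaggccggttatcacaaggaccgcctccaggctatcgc
Kcnh2 promoter, chr5:24351716-24351865, minus strand, values 97 and 100: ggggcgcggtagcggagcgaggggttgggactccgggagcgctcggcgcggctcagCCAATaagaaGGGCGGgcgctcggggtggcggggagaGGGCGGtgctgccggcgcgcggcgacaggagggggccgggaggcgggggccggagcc
Kcnip2 promoter, chr19:45816176-45816325, minus strand, values 57 and 45: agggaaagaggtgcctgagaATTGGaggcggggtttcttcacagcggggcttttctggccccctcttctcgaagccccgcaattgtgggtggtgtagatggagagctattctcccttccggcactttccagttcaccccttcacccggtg
Kcnd2 promoter, chr6:21215216-21215365, plus strand, values 42 and 51: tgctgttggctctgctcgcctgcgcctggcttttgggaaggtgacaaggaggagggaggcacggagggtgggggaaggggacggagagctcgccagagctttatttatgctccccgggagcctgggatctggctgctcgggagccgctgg
The Kcnj2 and Kcnh2 sequences each hold 1 CCAAT box and 2 GC boxes, the Kcnip2 sequence holds 1 CCAAT box, and the Kcnd2 sequence holds neither. The G and C content was 80% in the Kcnh2 peak, 68.0% in the Kcnj2 stretch, 65.3% in the Kcnd2 peak and 58% in the Kcnip2 peak.

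Kcnj2 encodes Kir2.1, the main inward rectifier of the ventricle. Its promoter peak lay at the same position in both libraries and had a mean value of 110.5 ± 2.12 (SD, n = 2), the highest among the 94 genes. Around it, 4 distal peaks were found in replicate 1 and 8 in replicate 2, more than around 48.2% of protein-coding genes. The strongest lay 1.33 kb upstream with values of 76 and 73, and the next lay in the intron with 51 in each library. The Kcnj2 distal peak 44.9 kb downstream had values of 43 and 42. Kcnj16, an inward rectifier of kidney epithelium that lies within 100 kb of Kcnj2, had no promoter peak in either library.

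Kcnj3 and Kcnj5 encode Kir3.1 and Kir3.4, which together form the acetylcholine-gated channel of the atria and pacemaker cells. The Kcnj3 promoter peaks had values of 44 and 46 and were not the same site: the highest peak was centred 441 bp downstream of the TSS in replicate 1 and 79 bp upstream in replicate 2. Both Kcnj3 sites were called in both libraries, with 42 and 46 at the upstream site and 44 and 37 at the downstream site. Kcnj5 had promoter values of 53 and 46, and its hotspot was listed at 5.52 in replicate 1 and 1.41 in replicate 2. Kcnj5 had 15 and 9 distal peaks and Kcnj3 had 8 and 5. The strongest Kcnj5 distal peak reached 101 and 86, above its own promoter, and lay just past the 3′ end of the gene, 30 kb from its most upstream TSS. Kcnj1, a kidney inward rectifier next to Kcnj5, had no promoter peak.

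Kcnh2 and Kcnq1 encode the pores of the rapid and slow delayed rectifier currents, which help to end the cardiac action potential. The Kcnh2 promoter peak had a mean value of 98.5 ± 2.12 (SD, n = 2), with a hotspot listed at 100 in replicate 1 and at 5.15 in replicate 2. Kcnh2 had 19 and 17 distal peaks, more than around 94.7% of protein-coding genes. The strongest had values of 98 and 91 in an intron 14 kb into the gene, 96 and 88 at 1.13 kb upstream, and 90 and 77 at 6.07 kb upstream. Kcnq1 had a value of 81 in each library. That Kcnq1 peak lay at an internal TSS, 2029 bp into the gene in replicate 1, and only replicate 1 had further promoter peaks at other Kcnq1 start sites, with values of 55, 32 and 39. The 320681 bp body of Kcnq1 held 37 distal peaks in replicate 1 and 27 in replicate 2.

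Kcnd2 and Kcnip2 encode the Kv4.2 pore and its KChIP2 subunit, which together carry the fast transient outward current of rodent ventricle. Kcnip2 had promoter values of 57 and 45 and 15 distal peaks in each library, more than around 90.6% of protein-coding genes. Its strongest distal peak had values of 79 and 76 and lay 38.7 kb upstream, in an intron of the neighbouring gene Armh3. Kcnd2 had promoter values of 42 and 51 and only 2 and 4 distal peaks. The Kcnd2 peak 1.47 kb upstream was stronger than the promoter peak in both libraries, with 62 and 60. The genes of this pore and its subunit thus had promoter values that overlapped between libraries, 45 to 57 and 42 to 51, while their distal counts did not overlap.

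**Figure D2:**
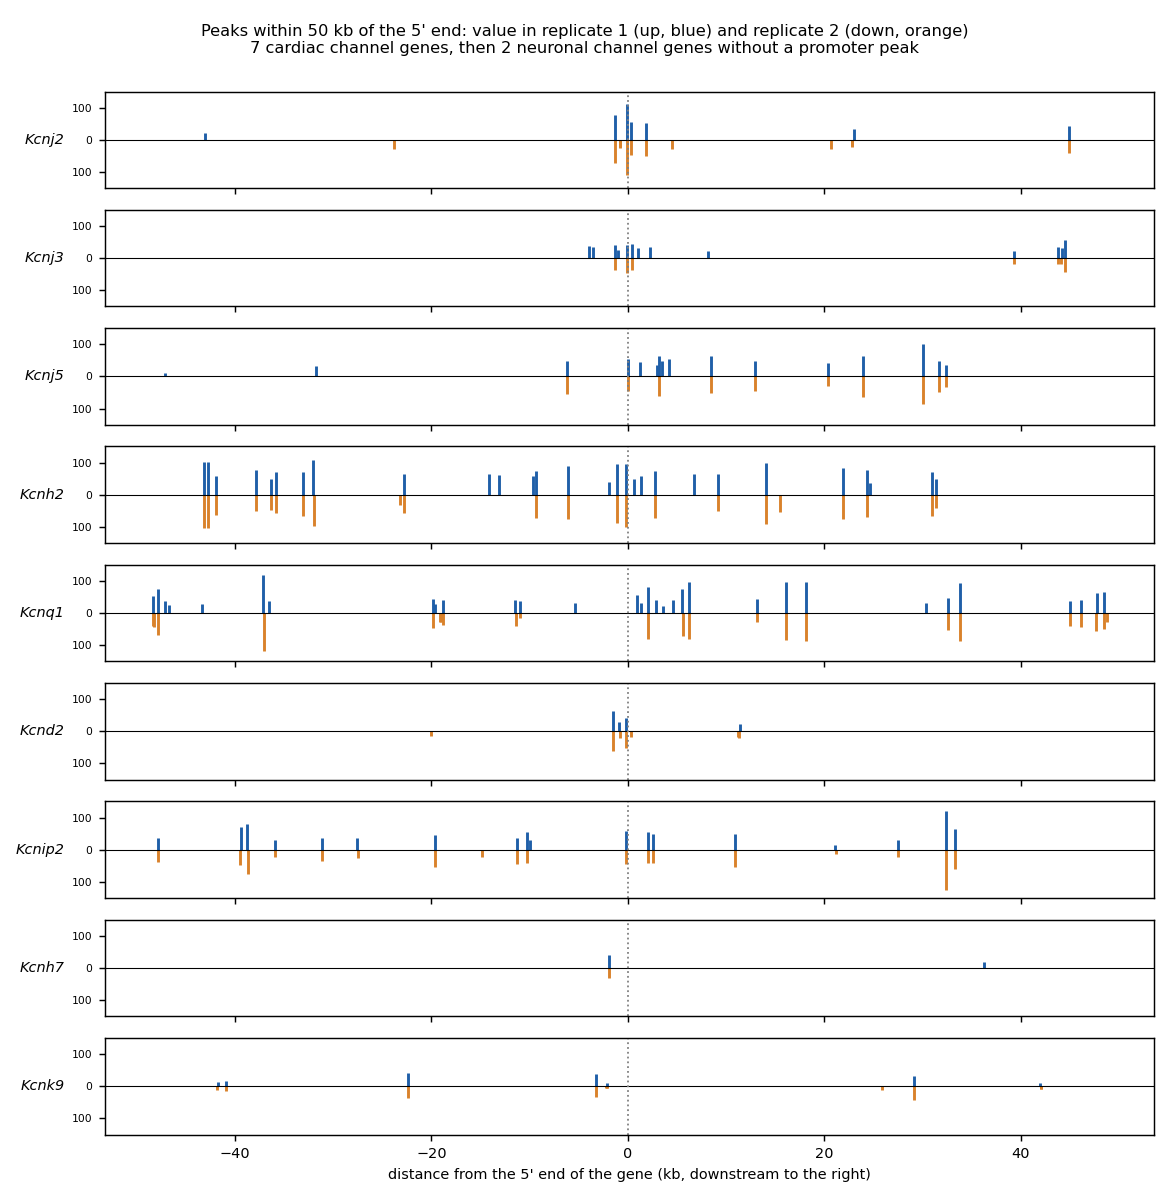
Peaks around the 7 cardiac channel genes and 2 neuronal channel genes without a promoter peak, by distance from the 5′ end of the gene in kb (downstream to the right), with the authors' peak value drawn upward for replicate 1 and downward for replicate 2. Kcnh2, Kcnq1, Kcnip2 and Kcnj5 have many peaks around them in both libraries, Kcnd2 has few, and promoter peaks of neighbouring genes are drawn too, such as the highest bar of the Kcnip2 panel, which lies near a start site of a neighbouring gene and not of Kcnip2.

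Among the 10 genes of other cardiac currents, 9 had a promoter peak in both, beside 64.2% of all protein-coding genes. Their median values were 67 and 53, below the 89 and 85 of all protein-coding genes with a peak in both. Kcnj11 and Kcnj8, which encode the pores of ATP-sensitive channels, had 84 and 79, and 67 and 67. Kcnk3 (TASK-1, an acid-sensitive leak channel of the atria) had 75 and 59, Kcna4 (Kv1.4, slow transient outward current) 71 and 53, Kcna5 (Kv1.5, ultrarapid current) 57 and 52, and Kcne1 (minK, the partner of Kcnq1) 60 and 45. Kcnd3 (Kv4.3) had 37 and 51 at different sites, and Kcnk2 (TREK-1, a stretch-sensitive leak channel) had 32 and 21, also at different sites. The exception was Kcnj12 (Kir2.2), with 47 in replicate 1 and no promoter peak in replicate 2. In Kcnj12 both libraries had peaks 2747 bp and about 3247 bp downstream of the start, with values of 49 and 57 at the first and 78 and 62 at the second.

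Of the 25 genes listed as neuronal, 12 (48.0%) had a promoter peak in both libraries (64.2% of all protein-coding genes did), 2 in replicate 1 alone (Kcnc2 and Kcnip4), 3 in replicate 2 alone (Kcna2, Kcnj6 and Kcnv1) and 8 in neither. The median value of the 12 was 44 in replicate 1 and 42.5 in replicate 2, and none of their means reached the protein-coding median of 87. Among the highest was Kcnc1, which encodes a Kv3 channel of fast-spiking neurons, with 71 and 65. Kcnh1 (Eag1) had 62 and 61, and Kcns2, a silent subunit that modulates Kv2 channels, had 66 and 48. Kcnmb4, the brain beta subunit of the BK channel, had 50 and 52. Kcnh3 (Elk2) followed with 48 and 43, Kcnk4 (TRAAK, a stretch-sensitive leak channel) with 40 and 37 and Kcnn1 (SK1) with 36 and 42. Kcnf1, Kcnt1, Kcnq3 and Kcna1 lay at 37 or below in both libraries.

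The 8 neuronal genes without any promoter peak included Kcnh4, Kcnh5, Kcnh7, Kcnip1, Kcnj9, Kcnk9 and Kcnk18. Kcnh4, Kcnh5 and Kcnh7 encode voltage-gated channels of the same family as Kcnh2. Kcnh5 had no peak but did have a promoter hotspot in both libraries, listed at 3.34 and 3.52. Lack of a promoter peak did not mean an empty neighbourhood: Kcnh4 had 23 and 10 distal peaks, Kcnj9 had 19 and 8, and Kcnh7, with 2 and 1, had a peak about 1964 bp upstream with 41 and 32. The sequence before the Kcnh7 start is shown as a GC-box promoter without a peak, to set beside those of Kcnj2 and Kcnh2.
Kcnh7 promoter window, the 150 bases before the most upstream TSS, chr2:63184288-63184437, minus strand, no peak: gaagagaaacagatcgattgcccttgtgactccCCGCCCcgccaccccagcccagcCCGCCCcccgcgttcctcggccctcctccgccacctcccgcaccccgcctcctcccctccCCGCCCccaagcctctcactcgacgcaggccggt
It holds 3 GC boxes, read on the other strand (capitals), a G and C content of 73.3% and no CCAAT box. A CCAAT match was found in the wider window of 300 bases around this start, so its lack holds for these 150 bases alone.

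**Figure D3:**
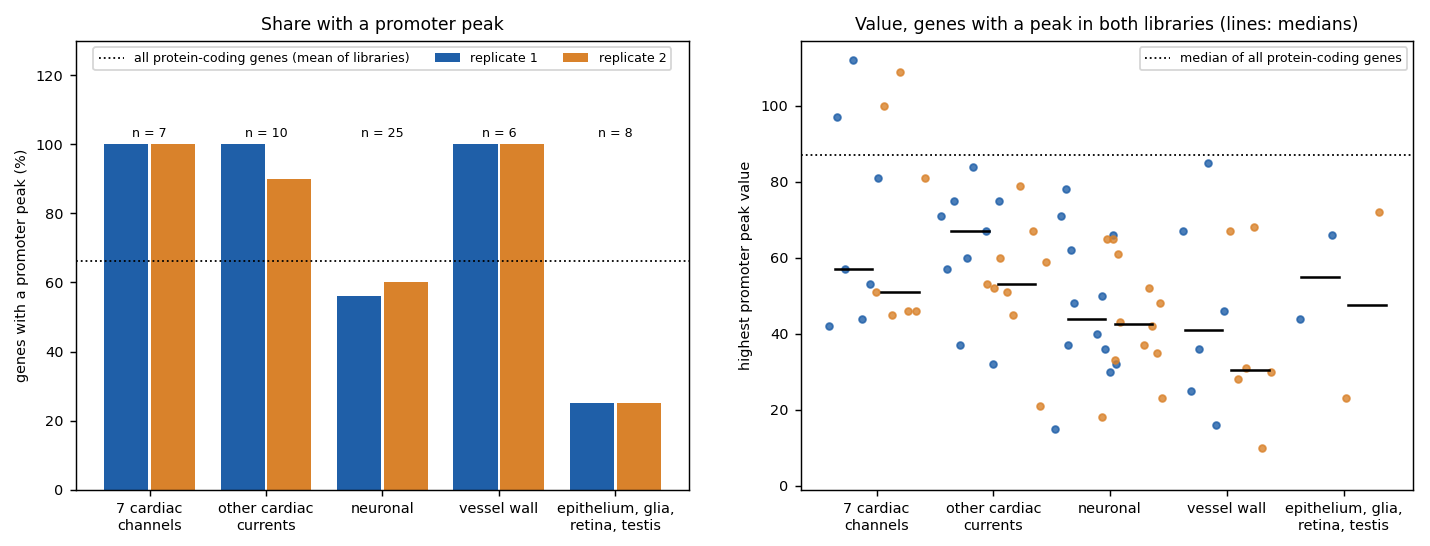
Left, share of genes with a promoter peak (vertical axis, %) in each library for 5 lists of Kcn genes, with a dotted line at the mean share of all protein-coding genes; right, promoter values of the genes with a peak in both libraries, 1 point per gene and library, with medians as lines. The 7 cardiac channels reach 100% in both libraries and the neuronal genes 56% and 60%, and in each list the values spread widely.

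Channels of the vessel wall were listed as a further check, since a heart contains arteries and veins. All 6 had a promoter peak in both libraries (64.2% of all protein-coding genes did), with medians of 41 and 30.5. Kcnn3, an SK channel of endothelium and brain, had the highest with 85 and 68. Kcnma1, the BK channel pore of smooth muscle, had 25 and 28, its beta subunit gene Kcnmb1 had 36 and 31, and Kcnn4, the intermediate-conductance channel of endothelium and blood cells, had 16 and 10. The Kcnn4 hotspot was nonetheless listed at 100 in both libraries, so the hotspot and peak values do not rank these promoters alike. Of 8 channels of epithelium, glia, retina or testis, 2 had one in both libraries, beside the same 64.2%, namely Kcnk5 with 66 and 72 and Kcnj10 with 44 and 23. Kcnj8 is on both the cardiac and the vessel list.

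Members on none of these lists ranged as widely. Besides Kcnab2, Kcnn2, Kcnab3 and Kcng2, given above, promoter values were 77 and 65 at Kcnq5, 71 and 62 at Kcnt2, 63 and 54 at Kcnk7, 61 and 48 at Kcne2, 52 and 57 at Kcnh6 and 51 and 58 at Kcnk13. Kcna3, Kcna7, Kcna10, Kcne3, Kcnip3 and Kcnj15 lay between 26 and 45. Kcna6, Kcnab1, Kcne1l, Kcne4, Kcng1, Kcng4, Kcnk10, Kcnk12 and Kcns3 lay between 13 and 35. Replicate 1 alone had a peak at Kcng3, Kcnk1 and Kcnmb2, and replicate 2 alone at Kcnb2. At Kcnb2 the window set the call: both libraries had a higher peak just over 500 bp upstream, with 56 in replicate 1 and 41 in replicate 2. No promoter peak was called at Kcnc4, Kcnd1, Kcnh8, Kcnj4, Kcnj14, Kcnk6, Kcnk15, Kcnmb3, Kcnrg or Kcns1, nor at Kcnj1, Kcnj13, Kcnj16, Kcnk16, Kcnu1 or Kcnv2 of the epithelium list.

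Promoters rich in CpG dinucleotides are open in most tissues, so the genes were split by the CpG observed over expected in the window of 500 bp to either side of their start sites, with 0.6 or more called CpG-rich. Of 50 CpG-rich Kcn genes, both libraries had a promoter peak at 34 (68.0%), against 93.1% of CpG-rich protein-coding genes. Of 44 CpG-poor Kcn genes, the count was 26 (59.1%), against 31.8% of CpG-poor protein-coding genes. The similar share overall was therefore made up of a lower share among CpG-rich genes and a higher share among CpG-poor ones. In the 17 genes of both cardiac lists, 9 of 10 CpG-rich and 7 of 7 CpG-poor genes had a peak in both libraries. In the neuronal list it was 9 of 16 CpG-rich genes (56.3%) and 3 of 9 CpG-poor genes (33.3%). Kcnj2, with the highest value of all, was CpG-poor by this measure (0.426), whereas Kcnk9, without a peak, was CpG-rich (0.911).

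**Figure D4:**
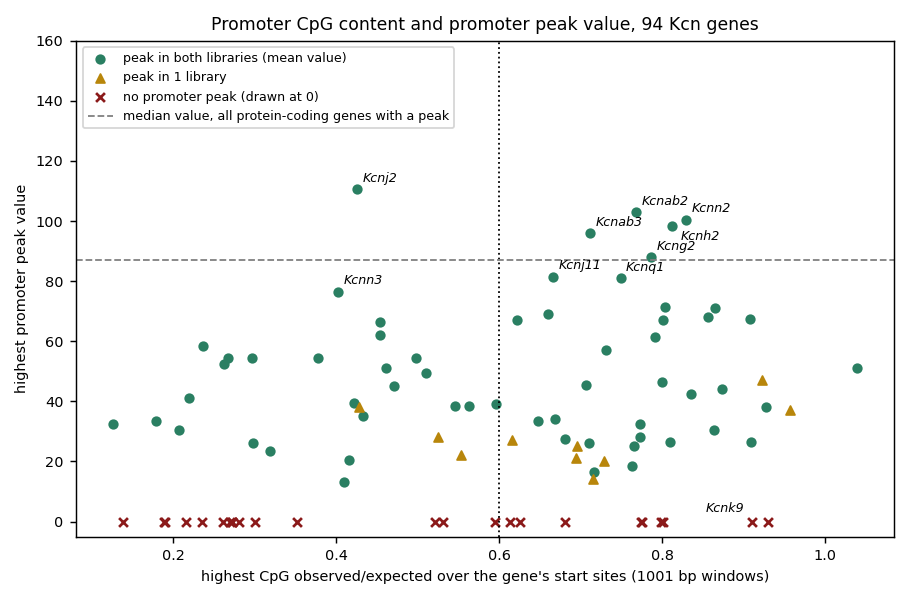
Promoter value (vertical axis, the authors' peak value) against the highest CpG observed over expected among the start sites of each of the 94 genes (horizontal axis, a ratio), with the dotted line at 0.6. Genes without a peak are drawn at 0 and lie on both sides of the line, 16 of the 50 CpG-rich genes lack a peak in at least 1 library, and Kcnj2 is the highest point.

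The highest promoter peak often lay at a start site inside the gene. Of the 60 genes with a promoter peak in both libraries, 41 (68.3%) had the highest at the most upstream TSS in at least 1 library. Counted alike, the share was 84.8% of all protein-coding genes with a promoter peak in both libraries. The 19 other Kcn genes included Kcnq1, Kcne1, Kcnj11, Kcng2, Kcnmb4 and Kcnma1. Among the 13977 protein-coding genes with a peak in both libraries, the highest peaks of both overlapped at 12976. The share was lower among the 60 Kcn genes, where the highest peaks overlapped at 52. They did not at Kcna1, Kcna6, Kcnd3, Kcng4, Kcnj3, Kcnk2, Kcnk4 and Kcnk12, all with values of 51 or less. At 8 genes the highest peak of at least 1 library lay within 500 bp of a TSS of another gene. Among them were Kcnab2, in replicate 2 near a TSS of Nphp4, and Kcnd3, Kcnk2, Kcnma1, Kcnn1 and Kcnq3. The same share was not counted over all protein-coding genes, so this count has no background.

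Potassium channel genes had somewhat more distal peaks within 50 kb than protein-coding genes in general. The median count was 8 in replicate 1 and 7 in replicate 2, and it was 6 in each for all protein-coding genes. They were also longer, with a median of 30.8 kb against 17.4 kb, and a longer gene with spread start sites covers more sequence. Per 100 kb of gene body the medians were 4.37 and 3.21 distal peaks, against 1.65 and 0. This ratio does not correct for length, since peaks within 1 kb of a TSS are left out but the length is whole. A short gene can thus hold none, and whether length accounts for the difference was not tested. At least 10 distal peaks (mean of both libraries) were found around 35 of the 94 genes (37.2%), against 26% of all protein-coding genes. Kcnv1 alone had none in either library (8.86% of protein-coding genes had none). Counts were higher in replicate 1 at 63 genes and in replicate 2 at 17. The peak list of replicate 1 is also the longer one, so each count is given per library.

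Among the genes with the most distal peaks were Kcnn3 with 31 and 22, Kcnd3 with 21 and 20, Kcnma1 with 21 and 18, Kcnj12 with 20 and 17 and Kcnh2 with 19 and 17. Of these, Kcnd3 and Kcnj12 encode pores of the other cardiac currents, Kcnh2 is among the cardiac 7, and Kcnn3 and Kcnma1 are on the vessel list. The cardiac 7 had medians of 14 and 9, the other cardiac currents 16.5 and 12 and the vessel wall channels 14.5 and 9.5. The genes of epithelium, glia, retina or testis had 9.5 and 7.5 and the neuronal genes 6 and 6. Counts above the 6 of all protein-coding genes were thus not limited to the heart and vessel lists. The spread within lists was wide, from 3 at Kcnd2 to 18 at Kcnh2 among the cardiac 7 (means of both libraries). The largest differences between libraries were at Kcnh4, Kcnj9 and Kcnj10, the last with 18 and 8.

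**Figure D5:**
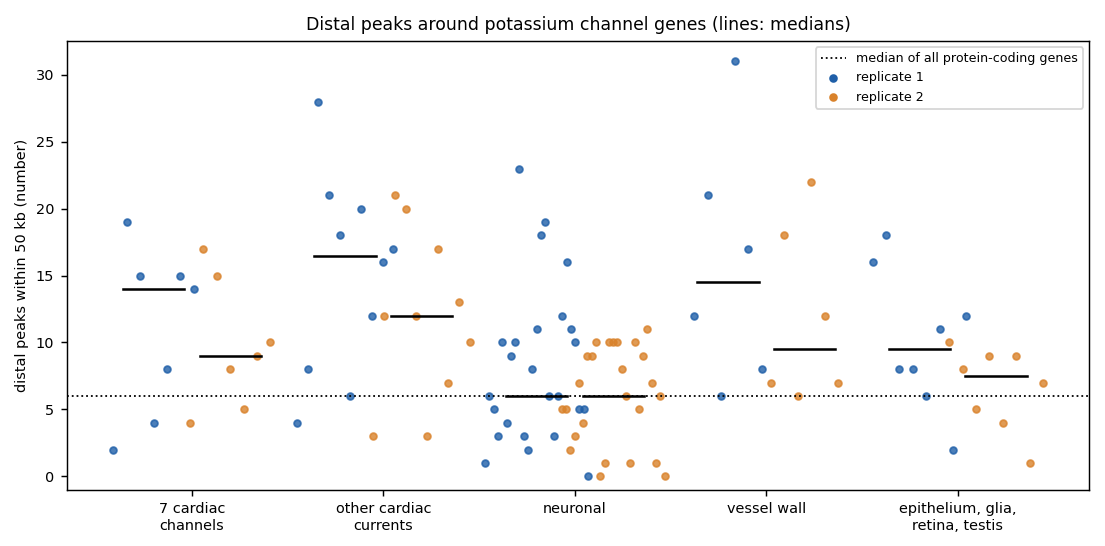
Number of distal peaks within 50 kb (vertical axis) of each gene in 5 lists of Kcn genes, with replicate 1 in blue, replicate 2 in orange, list medians as lines and a dotted line at 6, the median of all protein-coding genes. Both cardiac lists, the vessel wall list and the epithelium list have medians above the line in each library, and the neuronal medians lie on it. Single genes of 4 lists fall on both sides of the line and the vessel wall genes on or above it.

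Distal peaks near the cardiac genes also had higher values. Those around the cardiac 7 had a median value of 48 in replicate 1 (77 peaks) and 47.5 in replicate 2 (68 peaks), those around the other cardiac currents 42 and 42.5, and those around the neuronal genes 31.5 and 30. All distal peaks of a library had medians of 33 and 32. A peak of the other library overlapped 75.3% of the distal peaks around the cardiac 7 in replicate 1 and 86.8% in replicate 2, against 67.7% and 79.4% of all distal peaks. Around the neuronal genes it was 61.2% and 85.9%, and around the vessel wall genes 73.7% and 91.7%, so in replicate 2 the cardiac 7 lay close to the neuronal list. Peaks near 1 gene share its neighbourhood and are not replicates, so these medians lean on Kcnh2, Kcnip2, Kcnq1 and Kcnj5, which have most of them.

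At some genes the strongest distal peak found in both libraries exceeded the promoter peak of the same gene, and at others, such as Kcnj2 and Kcnn2, it did not. How often it did was not counted over the Kcn genes or over all protein-coding genes. The highest of several distal peaks is also set against promoter values that were low in this family. The cases below are therefore examples, and no trait of these genes is read from them. Kcne1 had the highest of the named genes, with 117 and 116 at a site just past the 3′ end of the gene, 13.5 kb from its nearest TSS, while its promoter had 60 and 45. Kcnd3 had 98 and 95 at 26.9 kb from its nearest TSS, past the 3′ end, against 37 and 51 at the promoter. Kcnma1 had 91 and 81 in an intron, against 25 and 28. Kcnk3 had 82 and 91 in an intron. Near Kcnj11, 90 and 76 were seen at 2.06 kb from a TSS and 80 and 71 inside Abcc8, the neighbouring gene for the sulfonylurea receptor that joins the Kcnj11 pore. A distal peak of the neuronal gene Kcnn1, with 111 and 110 at 2.55 kb upstream, and one in an intron of Kcnj6, with 83 and 72, show that high distal peaks were not limited to the cardiac lists.

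The strongest distal peaks of Kcnq1, Kcnj5 and Kcne1 are shown, as the elements of highest value beside genes of the slow delayed rectifier and the atrial acetylcholine-gated channel. The Kcne1 peak was added after its value was seen. Each is the peak of replicate 1 on mm10, on the strand of the gene, and capitals mark any match to the motifs listed further on.
Kcnq1 intron, chr7:143122356-143122505, plus strand, values 96 and 85: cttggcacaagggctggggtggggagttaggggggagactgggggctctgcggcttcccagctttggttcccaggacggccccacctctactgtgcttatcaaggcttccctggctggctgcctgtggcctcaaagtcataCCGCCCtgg
Kcnj5 3′ flank, chr9:32314236-32314385, minus strand, values 101 and 86: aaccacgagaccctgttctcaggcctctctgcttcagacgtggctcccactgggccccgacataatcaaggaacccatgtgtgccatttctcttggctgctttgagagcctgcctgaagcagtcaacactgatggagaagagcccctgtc
Kcne1 3′ flank, chr16:92345296-92345445, minus strand, values 117 and 116: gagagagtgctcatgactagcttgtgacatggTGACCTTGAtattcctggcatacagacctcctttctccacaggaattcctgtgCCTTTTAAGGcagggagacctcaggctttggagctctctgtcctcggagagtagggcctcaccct
The Kcnq1 peak holds a GC box, the Kcnj5 peak none of the motifs, and the Kcne1 peak a CArG box, the letters CCTTTTAAGG of the kind that serum response factor recognizes, and the letters TGACCTTGA, which read TCAAGGTCA on the other strand, the consensus of estrogen-related receptors.

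Neighbouring channel genes were compared where they lie within 100 kb of each other, which gave 8 clusters. Kcne2 and Kcne1 on chromosome 16 span 67.1 kb with 15 peaks in replicate 1 and 12 in replicate 2, or 22.4 and 17.9 per 100 kb, the densest of the 8. Both genes had a promoter peak, Kcne2 with 61 and 48. In 5 clusters exactly 1 gene of a pair had a promoter peak in both libraries, namely Kcnj10 beside Kcnj9, Kcnmb1 beside Kcnip1, Kcnj2 beside Kcnj16, Kcnk5 beside Kcnk16 and Kcnj5 beside Kcnj1. Such a peak was present at 64.2% of all protein-coding genes, so split pairs occur among other genes too. Neighbouring pairs of other genes were not counted, and no pattern is read from the 5. Kcna1 and Kcna6 both had low peaks, with 15 and 18 and with 28 and 24. In the Kcna3, Kcna2 and Kcna10 cluster, Kcna2 had a peak of 21 in replicate 2 alone. Distal peaks inside a cluster count for each of its genes, so the 83 and 77 seen near Kcnj9 and Kcnj10 is 1 site.

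Motifs were searched on both strands in 300 bases around each most upstream start (250 before to 50 after, read from mm10) and in distal peaks. The GATA motif was AGATAA, the TEAD motif was CATTCC and the TATA motif was TATAAA. The GC box was GGGCGG, the E-box was CAGCTG and the CRE was TGACGTCA, while AP-1 was searched as TGANTCA and ERR as TCAAGGTCA. CCAAT was searched as such, and MEF2, CArG and REST sites by their consensus. A match is a run of letters and not a bound site. The GC box was found in 46 of 94 Kcn promoters (48.9%), against 43.4% of all protein-coding promoters, CCAAT in 27 (28.7%) against 38.9%, and TATAAA in 4 (4.26%) against 12.7%. TEAD and E-box letters were each found in 20 (21.3%), against 13.6% and 15.4%. CCAAT was found in 5 of the cardiac 7 and in 0 of the 10 genes of other cardiac currents, and both lists are small. A MEF2 match was found in 1 Kcn promoter, against 0.510% of all protein-coding promoters, and a REST match in none, against 0.0919%.

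In distal peaks the GC box was found in 13.0% and 17.6% of those around the cardiac 7, against 5.18% and 5.49% of all distal peaks, which is 10 and 12 peaks. The shares were 5.33% and 5.93% around the other cardiac currents and 9.22% and 10.1% around the neuronal genes, so a raised share was not a feature of both cardiac lists, nor of cardiac genes alone. The MEF2 match, the consensus of a factor active in heart muscle, was found in 3 and 4 of these peaks (3.90% and 5.88%), against 2.17% and 2.30% of all distal peaks. Around the other cardiac currents it was found in 1 and 2 peaks (0.667% and 1.69%), below those shares, so the cardiac lists do not go the same way. REST, also called NRSF, is a repressor that keeps neuronal genes silent outside the nervous system. A REST match was found in 8 of 840 Kcn distal peaks in replicate 1 (0.952%) and 8 of 671 in replicate 2 (1.19%), against 0.241% and 0.304% of all distal peaks. The 9 distinct matches lay near 9 members, and 7 were in a peak of both libraries. Of these members, 4 are on the neuronal list (Kcnh1, Kcnh4, Kcnj6 and Kcnk9), which holds 25 of the 94 genes. The others are Kcnab2, Kcnd1, Kcnd3, Kcnh2 and Kcnn4. Around neuronal genes a match was found in 4 of 206 and 3 of 149 distal peaks. It was 1 of 77 and 1 of 68 around the cardiac 7, and 0 of 150 and 1 of 118 around the other cardiac currents. These counts are small, and a leaning to neuronal genes was not tested. The Kcnh4 match lay in an intron of Stat5b, in replicate 1 alone, and the Kcnd1 match in an intron of Gripap1. Among the peaks with a REST match, the highest is the Kcnh2 peak 6.07 kb upstream, shown with its match in capitals.
Kcnh2 upstream, chr5:24357596-24357745, minus strand, values 90 and 77: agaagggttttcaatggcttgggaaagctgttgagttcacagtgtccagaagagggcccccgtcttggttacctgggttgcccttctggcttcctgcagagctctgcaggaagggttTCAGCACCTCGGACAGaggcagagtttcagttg
The Kcnj6 match lay in a peak of 44 and 47 in its intron, 1.5 kb from a TSS, and the Kcnk9 match in a peak of 43 and 35, 22.4 kb upstream.

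Proteins that join these channels were taken as a separate list of 14 genes, chosen for their known partners. A promoter peak was found in both libraries at 10 (71.4%), close to the 64.2% of all protein-coding genes, with median values of 73 and 65. The sulfonylurea receptor genes Abcc8 and Abcc9, partners of Kcnj11 and Kcnj8, had 87 and 65, and 69 and 65. Dpp6, a partner of Kv4 channels, had 46 and 26, and its relative Dpp10 had no promoter peak. The anchoring genes Dlg1, with 109 and 99, and Ank2, with 68 and 54 and with 43 and 39 distal peaks, were the highest in the list by promoter value and by distal count. Among the gamma subunit genes of the BK channel, Lrrc52 had 89 and 74, Lrrc26 had 35 in replicate 1 alone, and Lrrc38 and Lrrc55 had none.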

How the data were processed

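Peaks and hotspots of 2 DNase-seq libraries were used as the authors deposited them, called for each replicate on mm10 per the text deposited with each library. Which aligner, caller and thresholds were used is not given in the sources used here. In the deposited peak lists each peak has a signal value, for which the authors state no normalization, and all 150 bp peaks on chromosomes 1 to 19, X and Y were kept. In the deposited hotspot lists the authors give −log10 of the q-value, and a score, which is that value rounded and was left out.

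Start sites were taken from GENCODE vM21 (132629 positions of all genes). Sequences were read from GRCm38.p6, whose primary sequence is that of mm10, and no deposited interval ran past a chromosome end. Peaks of both libraries were matched by overlap of at least 1 bp. Peak placement was tested on simulated data. Python 3.11.15, numpy 2.4.6, pandas 2.3.3, pysam 0.24.0 and matplotlib 3.10.9 were used.

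The members, gene lists, motifs and alternatives were chosen with earlier results of these data known. Named genes were both cardiac lists, up to 8 neuronal genes by value, the 2 highest of each class, the 6 with the most distal peaks, the 5 with the largest differences between libraries, clustered genes, and every other member once; a few genes the rule names are counted but not reported by name here. No test was made, since there is 1 group, and genes and peaks are not replicates. Alternatives for window, distance, start site, peak strength, overlap and library are given in the closing section.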

Additional observations from a re-analysis of the deposited data

How the results depend on the processing

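Of 141 recalculations of 17 results, 111 stayed within 1.5 times the count given or within the spread between libraries and 30 did not; the causes were not tested. Using only the stronger 50% of peaks in each library, a promoter peak remained in both libraries at 38 of 94 Kcn genes (58.5% of all protein-coding genes), 17 voltage-gated, 5 K2P, 4 activated and 6 auxiliary genes, 2 vessel wall genes and 1 gene of the epithelium list. With the most upstream TSS alone the counts were 42 of 94 for all Kcn genes, 5 for K2P and 7 for auxiliary genes (58.1% of all protein-coding genes). With a 250 bp window they were 50 of 94 for all Kcn genes and 7 for the neuronal list (61.6%). The 42 and 50 stayed within 1.5 times the main count of 60. Under each of these settings, and with stronger peaks, the Kcn share was below that of all protein-coding genes, unlike in the main count. Hotspots listed at 100 in both libraries numbered 24. The median promoter value of 46 became 49 at the most upstream TSS and 51 in the 250 bp window. The median number of distal peaks (mean of libraries) moved as follows. For all Kcn genes it went from 8 to 4 within 25 kb, 14.75 within 100 kb, 6 at the most upstream TSS, 6 when over 2.5 kb from every TSS, 2.75 for stronger peaks and 5 for peaks of both libraries, and it was 7 to 8 with 1 library left out. For the cardiac 7 it went from 12 to 5 and 21 at 25 and 100 kb, and was 9 to 14 with 1 library left out. For the neuronal list it went from 8 to 4 and 13 at those distances, 4 at the most upstream TSS, 5.5 over 2.5 kb, 2 for stronger peaks and 6 for peaks of both libraries. It was 6 and 6 in single libraries, since a median of means can differ from both medians. All protein-coding genes had medians of 3, 6 and 12.5 within 25, 50 and 100 kb. The count of 7 of the cardiac list and that of 9 of the other cardiac currents stayed within 1.5 times under each alternative. No paired analysis was possible because there is 1 group. Depth is unknown, and it limits all counts of weak peaks.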

Other observations

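Antisense genes that carry the name of a potassium channel gene were not members, and at 3 of 5 both libraries had a promoter peak. That is close to the 64.2% of all protein-coding genes, and the share over all antisense genes was not counted. Kcnq1ot1, the non-coding RNA that runs against Kcnq1 and is known for its role in imprinting, had a peak at chr7:143296556-143296705 in both libraries, with values of 89 and 77. That is close to the 81 and 81 of the Kcnq1 promoter itself, and the site lies inside the Kcnq1 gene body. Kcnab3os had 63 and 69 and Kcnd3os had 37 and 31, the latter within 500 bp of a Kcnd3 start site, while Kcnmb4os2 had 38 in replicate 1 alone and Kcnmb4os1 had none. DNase-seq carries no strand, so a peak between a gene and its antisense partner belongs to neither by these data.

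Peak and hotspot values ranked some potassium channel promoters differently. Kcnh2 had one of the highest peak values in replicate 2, 100, with a hotspot listed at 5.15, whereas the Kcnn4 peak of 10 in the same library lay in a hotspot listed at 100. Kcnb2 had hotspots listed at 100 in both libraries and a peak inside the 500 bp window in replicate 2 alone. Replicate 2 listed 3 overlapping peaks of value 4 at 2091 to 2211 bp upstream of Kcnk9, where replicate 1 listed 1 peak of 11, so counts of weak peaks include such runs.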
